A study of Homo sapiens with 3 samples.

Results

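The 7 genes described here write, maintain and remove cytosine methylation in DNA: the methyltransferases DNMT1, DNMT3A and DNMT3B, the adaptor UHRF1, and the dioxygenases TET1, TET2 and TET3. They were taken by symbol from a table of 12040 genes, and all 7 symbols were found. The table comes from RNA-seq of polyadenylated RNA in HEK293, an established human embryonic kidney line, and every group used its FLAG:DICER1 strain, built on T-Rex FLP-IN cells. By their labels, 1 library came from cells transfected for knockdown of DICER1, 1 from knockdown of DROSHA and 1 from mock transfection, and all 3 titles carry the mark 2.5d, which is not explained. The sources used here do not say whether the transgene was induced or whether the line is a single clone.

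DNMT1 copies methylation onto the new strand after replication, and UHRF1 brings it there by binding hemimethylated CpG. DNMT3A and DNMT3B set methylation at sites that lacked it, and TET enzymes oxidise 5-methylcytosine, which leads to its removal. DICER1 and DROSHA cut miRNA precursors, and the miR-29 family is a well-known repressor of DNMT3A, DNMT3B and the TET mRNAs, which links these genes to the enzymes that were knocked down.

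The table names none of its columns. It holds 3 levels per gene in a unit that is not stated, and 2 log2 fold changes. Each fold change is log2 of a numerator level plus 1 over the same denominator level plus 1. The comparisons are called first and second in the order of the table, and neither is given to a knockdown, nor is any level given to a library. Of the targeted genes, DICER1 had log2 fold changes of -1.32 (first) and 0.58 (second), and DROSHA of -0.11 and -1.65. Reads of the transgene may be counted under DICER1. Each group is a single library, so no value has a replicate error or a p-value, and whether a value reflects a knockdown, a culture or noise cannot be told apart. Depth is unknown, and it is not stated whether levels are per length. Levels were therefore not ranked between genes, and served only to gauge the weight of the added 1 and to find genes of like deposited value.

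The sequences of the miR-29 family are shown first, because TET3, DNMT3A, TET2 and TET1 hold more of their sites than most genes. All have the same seed, bases 2 to 8, given in capitals (mature sequences from RefSeq, GRCh38.p14).
hsa-miR-29a-3p: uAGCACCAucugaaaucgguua
hsa-miR-29b-3p: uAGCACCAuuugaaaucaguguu
hsa-miR-29c-3p: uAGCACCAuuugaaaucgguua

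A match to this seed, TGGTGCT, was searched on the transcript strand in the 3′ UTR of 1 GENCODE 29 transcript per gene. It was present in 14.7% of 10465 genes of the table, whose 3′ UTRs differ in length. TET3 held 10 matches, and no other gene of the 10465 held as many. DNMT3A and TET2 each held 4, a number exceeded by 3 genes. TET1 held 3 matches and DNMT3B held 1, while DNMT1 and UHRF1 held none. The 3′ UTRs measured 6424 bases in DNMT3A, 6000 in TET3, 3297 in TET2, 2668 in TET1, 1453 in DNMT3B, 1347 in UHRF1 and 127 in DNMT1, against a median of 1064, so the members with most matches also had the longest 3′ UTRs. The match nearest the stop codon in each of the 5 carriers is shown with its neighbouring bases, the match in capitals.
DNMT3A, chr2:25233408-25233432, minus strand, GRCh38: aacccgacttcataaTGGTGCTttc
DNMT3B, chr20:32809090-32809114, plus strand, GRCh38: ttttactcttcttacTGGTGCTatt
TET1, chr10:68692082-68692106, plus strand, GRCh38: tagaatcactcagttTGGTGCTtta
TET2, chr4:105276951-105276975, plus strand, GRCh38: tcttaaaataccatcTGGTGCTgaa
TET3, chr2:74102214-74102238, plus strand, GRCh38: cccgagctgtctctgTGGTGCTttt

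None of the 7 genes was past 2-fold in either comparison or in the difference between them. The background was low: 0.341% of all 12040 genes were past 2-fold in either direction in the first comparison, 0.831% in the second and 1.66% in the first minus the second. At 1.5-fold, no member passed in the first comparison (2.17% of all genes), DNMT3B alone passed in the second, on the lower side (5.07% of all genes), and DNMT3B and UHRF1 passed in the difference, on the higher side (9.13% of all genes). The medians of the 7 were -0.0024 (first) and -0.023 (second), beside 0.030 and 0.0063 over all genes. In the first comparison 3 members were above 0 and 4 below, and in the second likewise 3 and 4.

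**Figure D1:**
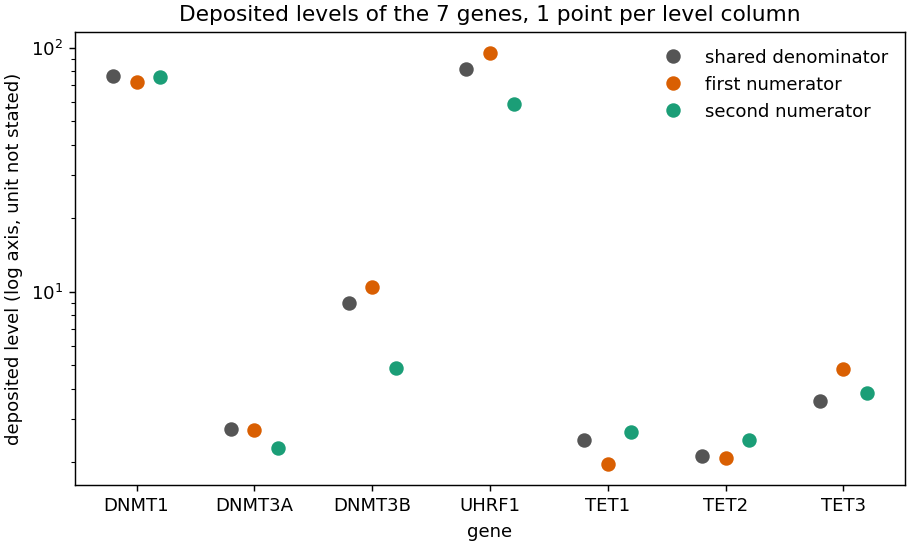
Levels of the 7 genes in the authors' deposited table, on a log axis in an unstated unit, with 1 point for each of the 3 unnamed level columns and no error bars because there are no replicates. DNMT3B and UHRF1 have their lowest point in the second numerator, at 4.88 and 59.0, while the points of DNMT1 lie between 72.6 and 76.8.

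Of the maintenance pair, UHRF1 varied more than DNMT1. The authors' deposited table gave DNMT1 levels of 76.8 in the shared denominator, 72.6 in the first numerator and 75.5 in the second. These lie close together, and the log2 fold changes were -0.08 and -0.02. Exons of DNMT1 overlap those of S1PR2 on the same strand in GENCODE 29, and S1PR2 has its own row, so the split of reads between them is uncertain. For UHRF1 the authors' deposited table gave 81.9, 95.3 and 59.0 in the same order. The second numerator was the lowest and the first the highest, with log2 fold changes of 0.22 and -0.47. Over all genes of the table, the first comparison placed UHRF1 at percentile 83.9 and the second at 6.65. Among the 1311 other genes whose denominator level was within 2-fold of its own, these percentiles were 89.7 and 6.10. The first minus the second was 0.68 for UHRF1, a ratio of 1.61 between the numerator levels, and -0.06 for DNMT1.

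Among the de novo enzymes, DNMT3B had the widest spread of the 7 genes. Its levels in the authors' deposited table were 8.94 in the denominator, 10.4 in the first numerator and 4.88 in the second. The second was the lowest of the 3, and the log2 fold changes were 0.20 and -0.76. That put DNMT3B at rank 222 from the bottom of 12040 genes in the second comparison, percentile 1.84, and at percentile 81.8 in the first. Among 5043 other genes of similar denominator level, its percentile in the second comparison was 1.86. The first minus the second was 0.96, percentile 98.4. Without the added 1, it was 1.09, a 2.14-fold ratio of the numerator levels, so that DNMT3B passed 2-fold on that scale and not on the authors'.

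DNMT3A did not share this spread. The authors' deposited table listed it at 2.72, 2.72 and 2.28, in the order denominator, first and second numerator. The log2 fold changes were -0.0024 and -0.18, and the difference was 0.18. The added 1 is large beside such values: without it, the value in the second comparison was -0.26. The order of the 3 levels was nonetheless alike in DNMT3A, DNMT3B and UHRF1 in that the second numerator was the lowest, which was not so for DNMT1 or any TET gene.

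No TET gene was past 1.5-fold in either comparison or in the difference. TET1, the family member prominent in embryonic stem cells, had 2.46 in the denominator, 1.96 in the first numerator and 2.66 in the second, per the authors' deposited table. The first numerator was the lowest, and the log2 fold changes were -0.23 and 0.08. TET2, which is often mutated in blood cancers, had 2.11, 2.08 and 2.45 in the authors' deposited table. Its log2 fold changes were -0.02 and 0.15. TET3, the form that is abundant in the oocyte, had 3.57, 4.80 and 3.83 in the authors' deposited table. It was highest in the first numerator, with 0.34 and 0.08, which put it at percentile 94.6 of all genes in the first comparison, the highest placement of the 7, and 62.1 in the second. Without the added 1, TET1 was at -0.33 and TET3 at 0.43 in the first comparison. All 3 TET genes were above 0 in the second comparison, between 0.08 and 0.15, while UHRF1 and all 3 DNMT genes were below 0.

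**Figure D2:**
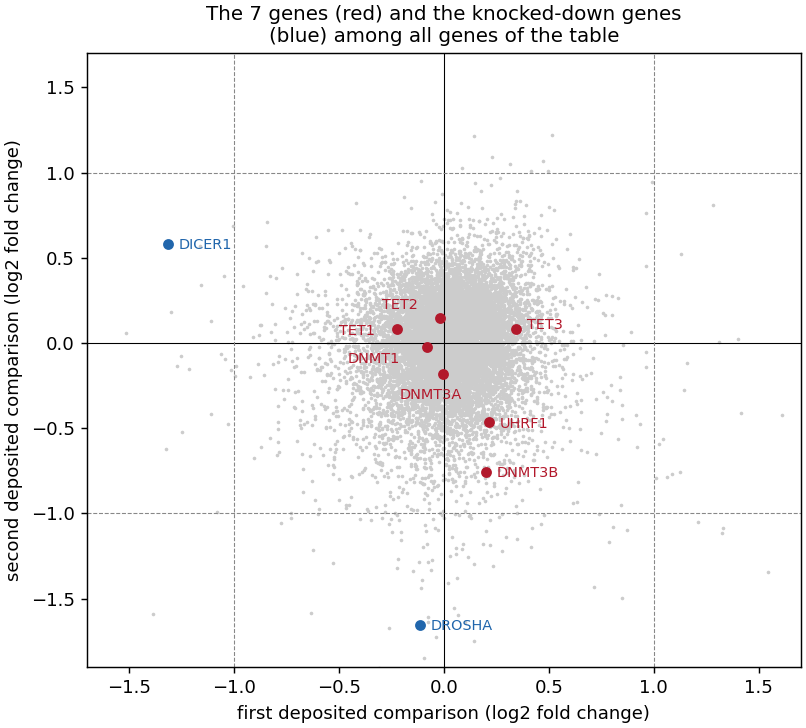
Log2 fold change in the second comparison against the first, with 1 grey point per gene of the table, the 7 genes in red, DICER1 and DROSHA in blue, and dashed lines at 2-fold; 8 genes lie outside the axes. All 7 genes lie inside the dashed lines, with DNMT3B lowest at -0.76 in the second comparison and TET3 furthest right at 0.34 in the first. Both axes share the denominator level, so they are not independent.

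Ordered by the first minus the second, which does not contain the shared denominator, the genes ran from DNMT3B at 0.96 and UHRF1 at 0.68 through TET3 at 0.26, DNMT3A at 0.18, DNMT1 at -0.06 and TET2 at -0.17 to TET1 at -0.31. Over all genes, the middle 90% ran from -0.49 to 0.63, and only DNMT3B and UHRF1 lay outside it. With single libraries no neighbours in this order can be separated. The 3 genes closest to DNMT3B in both fold changes, by Euclidean distance among 5043 genes of similar denominator level, were LIMD2 (0.19 and -0.74, distance 0.016), IFI27L1 (0.21 and -0.78, distance 0.027) and PRR3 (0.20 and -0.79, distance 0.037). With 2 values per gene that share a denominator, such closeness is a description only.

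The number of miR-29 matches was set beside the levels. TET3, with 10 matches, had the highest value of the 7 in the first comparison, 0.34. TET2 and DNMT3A, with 4 each, had -0.02 and -0.0024 there, and TET1, with 3, had -0.23, so carriers were spread on both sides of 0. In the second comparison the 3 TET genes were slightly above 0, and DNMT3A and DNMT3B, which also carry the match, were at -0.18 and -0.76. Over the whole table, the 55 genes with at least 3 matches had medians of -0.018 and 0.024. TET3, TET2, DNMT3A and TET1 are themselves among the 55, and the median of -0.018 is the value of TET2. Medians were 0.027 and -0.0097 for 180 genes with 2 matches, and 0.021 and 0.021 for 1299 genes with 1. For the 8931 genes with none they were 0.035 and 0.0083. The classes also differed in 3′ UTR length, with medians of 5101, 3776, 2481 and 878 bases in the same order.

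Sites of 5 other miRNA families were counted the same way, as matches to bases 2 to 8. The let-7 match CTACCTC was found once, in TET3, and in 9.81% of all genes. The miR-17 match GCACTTT occurred 1 time each in DNMT3A, TET1 and TET2 and 2 times in TET3, against 22.2% of genes with any. The miR-26 match TACTTGA occurred 3 times each in TET2 and TET3 and 1 time each in DNMT3A and TET1, against 12.6% of genes with any. The miR-101 match GTACTGT occurred 2 times in TET2 and 1 time in DNMT3A (10.8% of genes), and the miR-148 match TGCACTG 1 time each in TET2 and DNMT1 (14.4% of genes). Over the 6 families this made 16 matches in TET3, 11 in TET2, 7 in DNMT3A, 5 in TET1, 1 each in DNMT3B and DNMT1, and none in UHRF1. DNMT3B and UHRF1, the genes with the widest spread of levels, held 1 and 0 of these matches. The part of miRNA sites, miR-29 included, in the members' values was not tested.

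Other 7-mers were looked up because their carriers were low in these same comparisons, so the low carrier medians follow from that choice. In the first comparison 1429 genes with CAATCTA or AATCTAA, which overlap by 6 letters, had a median of -0.09, against 0.05 for the other genes. Of the 7 genes, TET1 held 3 matches to this pair and DNMT3A held 1, and they stood at -0.23 and -0.0024. In the second comparison 2033 genes with GTGACTT or TGACTTA, also overlapping by 6 letters, had a median of -0.05, against 0.02. DNMT3A, at -0.18, held 2 matches and the other 6 genes none, DNMT3B and UHRF1 included. A single stretch that holds both 7-mers of a pair counts as 2 matches, so these numbers need not be separate sites. The part of these 7-mers in the members' values was not tested.

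Promoter sequences were examined because UHRF1 and DNMT1 are both known to be transcribed in S phase under E2F factors. An E2F consensus was searched as TTTCGCGC, TTTGGCGC, TTTCCCGC or TTTGCCGC on both strands, in RefSeq windows from 250 bases before to 50 after each start. It was present in 5.02% of 12802 windows of 8633 genes of the table, some of which overlap. The single DNMT1 window held it, as did 2 of the 3 UHRF1 windows. No window examined of DNMT3A or a TET gene held it, nor did the single DNMT3B window, at chr20:32779602-32779901. That window lies inside DNMT3B, downstream of the outermost start in GENCODE 29 at position 32762385, which was not examined. The windows of DNMT1 and UHRF1 likewise lie inside the outermost GENCODE bounds, at positions 10231286 and 4903080. A DNMT1 window and a UHRF1 window held the same spelling, in opposite orientations relative to transcription. They are shown with it in capitals, each on the strand of its gene.
UHRF1, chr19:4909894-4910193, plus strand, GRCh38.p14: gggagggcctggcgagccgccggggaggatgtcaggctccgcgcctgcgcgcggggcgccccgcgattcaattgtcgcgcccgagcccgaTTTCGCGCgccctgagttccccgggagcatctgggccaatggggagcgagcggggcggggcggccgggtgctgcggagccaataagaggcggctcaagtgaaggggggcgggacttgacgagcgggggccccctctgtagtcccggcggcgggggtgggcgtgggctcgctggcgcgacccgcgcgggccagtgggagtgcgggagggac
DNMT1, chr19:10194904-10195203, minus strand, GRCh38.p14: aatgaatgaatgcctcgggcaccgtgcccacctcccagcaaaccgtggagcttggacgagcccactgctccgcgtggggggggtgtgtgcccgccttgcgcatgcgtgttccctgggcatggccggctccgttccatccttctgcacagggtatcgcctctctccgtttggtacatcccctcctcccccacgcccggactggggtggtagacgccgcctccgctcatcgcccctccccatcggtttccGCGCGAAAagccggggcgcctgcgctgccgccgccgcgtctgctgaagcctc

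These windows held 40 and 30 CpG dinucleotides (UHRF1 and DNMT1), against a median of 26 over all windows. The genes that share the spelling stood apart in the second comparison, UHRF1 at -0.47 and DNMT1 at -0.02.

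Genes of the S phase, when DNMT1 and UHRF1 act, were lower in the second comparison than the table as a whole. The median of 16 listed genes was -0.23 there, with 14 below 0, beside 0.0063 over all genes. In the first comparison it was 0.07, with 11 above 0, beside 0.030. RRM2, a subunit of ribonucleotide reductase, alone was past 2-fold, at -1.64 in the second comparison. The cyclin E gene CCNE2 was the lowest in the first at -0.64, and the licensing factor CDT1 the highest in both, at 0.38 and 0.09. PCNA, the replication clamp, was at 0.04 and 0.09. The values of UHRF1 in both comparisons lay within the range of this list. RRM2 widens that range in the second comparison, where DNMT3B, at -0.76, lay within it too. UHRF1, at -0.47 there, was below the list's median of -0.23. The part of cell cycle position in the values of UHRF1 was not tested.

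**Figure D3:**
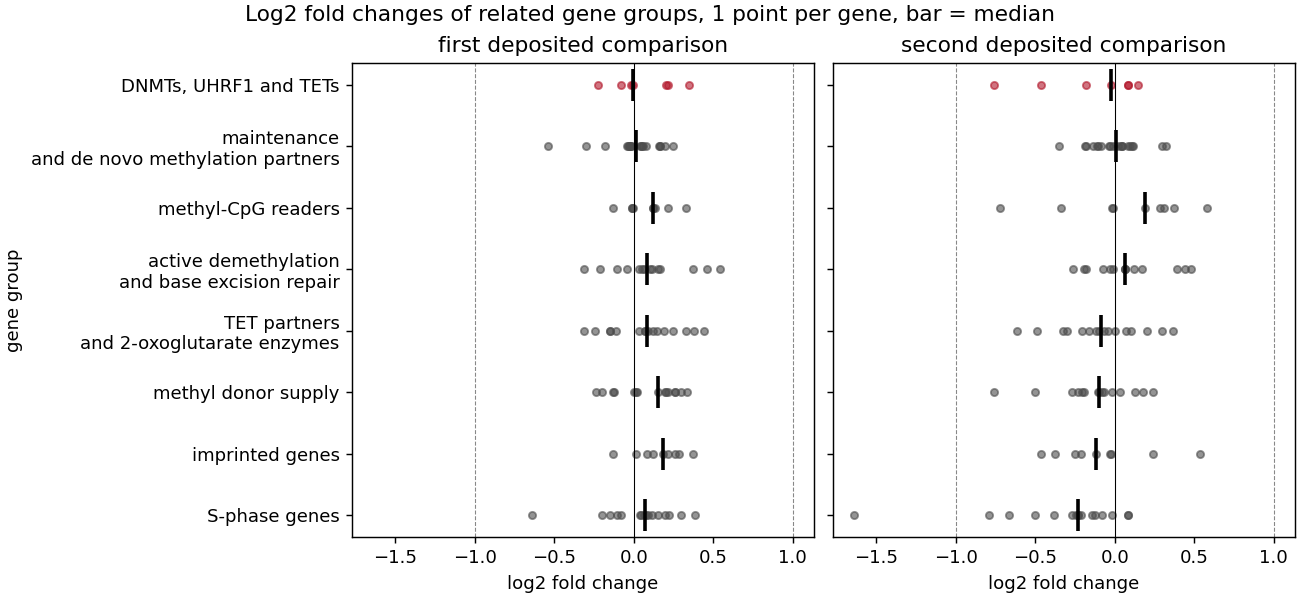
Log2 fold changes of the 7 genes (top row, red) and of related gene groups in the first (left) and second (right) comparison, with 1 point per gene, a black bar at the median and dashed lines at 2-fold. Of all points, RRM2 in the S-phase row of the second comparison, at -1.64, lies past 2-fold.

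Partners of the methyltransferases were close to the table as a whole. None of 20 measured genes was past 2-fold, and the medians were 0.01 and 0.0052. HELLS, the remodeller needed for methylation of repeats, was at -0.02 and -0.04, and UHRF2, the paralog of UHRF1, at -0.18 and 0.12. CDCA7, the partner of HELLS, was the lowest of the group in the second comparison at -0.35 and stood at 0.20 in the first. Its relative CDCA7L was the highest in both, at 0.25 and 0.32. CBX5, which encodes the heterochromatin protein HP1 alpha, was lowest in the first at -0.54.

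Genes listed as readers of methylated CpG and the repair enzymes that complete demethylation also had no gene past 2-fold. The reader list was not limited to genes shown to bind methylated CpG. The medians of the 9 listed as readers were 0.12 and 0.19. MBD2 was the lowest of these in both comparisons, at -0.13 and -0.72. MBD6 was highest in the first at 0.33 and ZBTB4 highest in the second at 0.58. The 14 genes of active demethylation and base excision repair had medians of 0.08 and 0.06. TDG, the glycosylase that removes TET products, was the lowest of them in the first comparison at -0.31 and stood at 0.12 in the second. GADD45A was highest in the first at 0.54, and LIG3 and GADD45G marked the ends of the second at -0.26 and 0.48.

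Genes of methyl donor supply and those listed with the TET enzymes were on balance above 0 in the first comparison and below it in the second. None was past 2-fold on the authors' scale. For 15 genes of methyl donor supply the medians were 0.15 and -0.10, with 10 and 4 above 0. In the first comparison AHCYL1 was lowest at -0.24 and MTHFD2, of the mitochondrial folate pathway, highest at 0.33. MTRR, which reactivates methionine synthase, was lowest in the second at -0.76, and MAT2B highest at 0.24. TYMS is counted in both the donor and the S-phase list, and PCNA in both the partner and the S-phase list. Another list held 16 TET partners and enzymes linked to 2-oxoglutarate, the TET cosubstrate, and was not limited to enzymes that use it. Its medians were 0.08 and -0.08, with 11 and 6 above 0. SDHB and CXXC5 were the ends of the first comparison at -0.32 and 0.44. WT1, a TET2 partner, was the lowest of the second at -0.61. Its levels were 2.23 in the denominator and 1.11 in the second numerator, so the added 1 shrinks their ratio strongly.

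Listed germline genes silenced by promoter methylation were absent from the table, and imprinted genes were present only in part. The level of an imprinted gene does not separate its alleles, so it is no measure of silencing by methylation. Of 28 listed germline genes, 0 were in the table, which holds only genes with a denominator level above 1. Of 26 imprinted genes 9 were measured, with medians of 0.19 and -0.12 and none past 2-fold. PHLDA2 was the lowest of them in both comparisons at -0.13 and -0.46, and BLCAP the highest at 0.38 and 0.54. GRB10 was at 0.29 and -0.21.

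Base composition moved with the fold changes across the table. Over 10581 genes with a transcript, Spearman's rho of GC content with the fold change was 0.39 (first), -0.28 (second) and 0.47 (difference), a description across genes that share libraries. The chosen transcripts of DNMT1, UHRF1, DNMT3B, DNMT3A and TET3 had GC contents of 56.2%, 56.0%, 53.9%, 53.7% and 52.3%, and those of TET2 and TET1 43.0% and 41.0%, against a median of 49.0%. TET1 and TET2, with the lowest GC contents of the 7, had negative differences, and UHRF1, DNMT3B, DNMT3A and TET3 had positive ones. DNMT1, with the highest GC content, had a negative difference of -0.06. The part of GC content in the members' values was not tested.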

How the data were processed

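The deposited table lists gene symbols without a header. Per the submitters' processing notes, the tools were TopHat2 2.06, Cuffdiff 2.1.1, Cufflinks, SAMtools and CASAVA 1.8.2 and the build hg19, with no role or order. The sources used here do not say if counting used strand. The authors deposited log2 fold changes in 2 columns. These were recomputed from the 3 level columns after adding 1, and agreed within 1e-11 in all 12040 rows. The 3 unnamed level columns, 1 denominator and 2 numerators, were used as terms of these comparisons and given to no sample.

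Genes past 2-fold (log2 of at least 1 in size) were counted, with no test, since each group has 1 library. Members and related lists were chosen with earlier results of these data known. From each list the highest and lowest gene per comparison and any past 2-fold were named, except 1 that is not reported here; HELLS, UHRF2, PCNA, GRB10 and the miRNA families, 7-mers and E2F spellings were chosen after values were seen. The 3 genes nearest to the member with the largest difference were named. Transcripts were from GENCODE 29 on GRCh38, matched by symbol, taking per gene the longest coding sequence and then the longest 3′ UTR; all 7 members matched here and among the RefSeq promoters. Python 3.11.15, numpy 2.4.6 and pandas 2.3.3 were used. The fold-change arithmetic was checked on simulated levels without noise, which tests the code only. Alternatives were a 1.5-fold threshold, an added 0.1 or 0, re-centring and a level filter.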

Additional observations from a re-analysis of the deposited data

How the results depend on the processing

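The count of members past 2-fold was 0 in each comparison and in the difference. With a threshold of 1.5-fold it became 1 in the second comparison (DNMT3B) and 2 in the difference (DNMT3B and UHRF1), and stayed 0 in the first. With 0.1 added to the levels in place of 1, or with nothing added, it became 1 in the difference (DNMT3B), because the added 1 shrinks ratios, and stayed 0 in both comparisons. Re-centring on the median of all genes, which moved values by at most 0.030, left the counts at 0. Of 63 member values under these alternatives, 0 changed sign. The size of the added value cannot change a sign, and re-centring moved values too little to do so, so this is no check of direction. The counts of related genes past 2-fold were unaltered by re-centring and by a denominator level of at least 5. That filter can only remove genes, and RRM2, the gene counted, had a denominator level of 54.2. At 1.5-fold several counts rose. The S-phase count in the second comparison went from 1 to 3, and the methyl donor and TET partner counts in the difference from 0 to 2. Other added values were not tried on the related lists. No paired analysis was possible because each group has 1 library. Depth is unknown, so the precision of the levels cannot be given.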
